A study of Mus musculus with 8 samples.

Results

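The genes described here build and control the mitotic spindle, the kinetochores and the cleavage furrow. They were chosen by symbol as a list of 54 genes, of which 52 had a probe set of their own among 17097 genes measured; Nuf2 and Ccnb1 had none. Cells were sorted from mouse skin squamous cell carcinomas (SCC) by 2 surface proteins, α6-integrin and CD34, after blood and endothelial cells had been removed, a population that the labels name cancer stem cells. Poorly differentiated tumours, whose titles read PD/S-SCC and which are called PD-SCC here, gave 4 arrays: 2 of lineage OT7, 1 of OT14 and 1 of OT15. Well differentiated tumours (WD-SCC) gave 4 arrays in the same split, and 1 of the OT7 arrays carries no replicate number. All groups had the strain background FVB/C57/Bl6, the K14-HPV16 transgene, in which the keratin 14 promoter drives papillomavirus genes in basal keratinocytes, and nude mice as hosts of the transplanted tumours. The original tumours arose spontaneously or after DMBA-TPA, a mutagen followed by a promoter of growth, and the labels do not say which lineage had which origin, how old the animals were, or whether the paired OT7 arrays are separate tumours. A p-value here thus reflects how far these arrays scatter, some of which may be technical, and precision is limited by their number.

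A cell in mitosis condenses its chromosomes, builds a kinetochore on each centromere, and lets microtubules of the spindle pull on the kinetochores. A checkpoint holds back the anaphase-promoting complex until each kinetochore is attached, after which separase cuts cohesin, the chromosomes part and a contractile ring divides the cell. Most of these genes are transcribed late in the cell cycle, and the cell cycle homology region (CHR), a short promoter element bound by MuvB complexes (DREAM, B-MYB and FOXM1), is known for timing them, often together with CCAAT boxes bound by NF-Y. In skin, dividing cells lie mainly in the basal layer, and cells that differentiate leave the cycle.

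The promoters of the 3 genes with a CHR and, on the probe sets used, the smallest p of the stage comparison are shown because most promoter windows of the list hold this element, which the choice of the genes did not use. Each sequence runs from 250 bases before the annotated start to 30 bases after it, on the strand of the gene, taken from RefSeq on GRCm38.p6. They lie at chr4:124936888-124937167 on the minus strand for Cdca8, at chr5:45669675-45669954 on the plus strand for Ncapg and at chr11:117848987-117849266 on the plus strand for Birc5. Capitals mark each CHR (TTTGAA or TTTAAA) and each CCAAT box, which on the other strand reads ATTGG.
Cdca8: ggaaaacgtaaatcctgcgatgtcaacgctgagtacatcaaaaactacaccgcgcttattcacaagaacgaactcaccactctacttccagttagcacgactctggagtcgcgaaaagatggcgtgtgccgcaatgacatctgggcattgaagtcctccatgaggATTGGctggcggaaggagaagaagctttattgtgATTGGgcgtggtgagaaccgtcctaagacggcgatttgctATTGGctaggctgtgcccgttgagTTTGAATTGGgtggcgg
Ncapg: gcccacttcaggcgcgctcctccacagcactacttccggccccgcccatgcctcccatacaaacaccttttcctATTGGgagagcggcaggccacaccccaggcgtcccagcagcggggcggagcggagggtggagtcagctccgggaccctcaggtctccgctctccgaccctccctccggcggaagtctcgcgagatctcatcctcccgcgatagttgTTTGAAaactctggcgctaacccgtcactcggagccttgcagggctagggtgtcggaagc
Birc5: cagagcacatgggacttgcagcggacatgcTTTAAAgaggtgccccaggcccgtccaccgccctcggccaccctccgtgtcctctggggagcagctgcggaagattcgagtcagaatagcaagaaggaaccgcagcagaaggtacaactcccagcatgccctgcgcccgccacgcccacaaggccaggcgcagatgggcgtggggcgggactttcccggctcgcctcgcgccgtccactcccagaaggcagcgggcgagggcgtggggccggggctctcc
In Cdca8 the TTTGAA began 14 bases after the start and ran into an inverted CCAAT box that began 19 bases after it, while 3 more inverted boxes began 85, 51 and 11 bases before the start. In Ncapg the TTTGAA began 30 bases before the start and an inverted CCAAT box 176 bases before it. In Birc5 the capitals mark a TTTAAA that began 220 bases before the start, and this stretch held no CCAAT box.

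RefSeq promoter windows of 300 bases were at hand for 47 of the 54 genes, in 52 windows. A CHR on either strand was in 38 of these 52 windows (73.1%), against 27.6% of all 32851 windows, and a CCAAT box was in 75% against 37.4%. Both motifs were in 61.5% of the mitotic windows and 10.7% of all windows. TTTGAA alone, within 50 bases of the start, was in 61.5% against 4.94%. Among genes that passed the threshold of the stage comparison below, 20 of 21 windows (95.2%) held a CHR. Among those that did not pass, 17 of 29 windows (58.6%), of 24 genes, did. The 7 genes without a window, Spc24, Aurkb, Incenp, Ccna2, Tpx2, Kif20a and Smc4, all passed, so the first share leaves them out. The mitotic windows had a mean GC content of 58.2%, and all windows 53.8%. These shares describe letters in a window and carry no test.

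Values are log2 expression values throughout, 1 unit being a 2-fold difference, and a difference is PD-SCC minus WD-SCC. The highest of 15 bacterial control probe sets without added RNA served as background on each array and averaged 3.69 on PD-SCC arrays and 4.11 on WD-SCC arrays. Where all 4 arrays of a stage read under it and all 4 of the other stage above it, the gene has only a bound. The bound sets the mean of the other stage against the mean, over the arrays under background, of background or the gene's own value, whichever was higher. The sort markers were checked first. Itga6 lay above this background on all 8 arrays, and Cd34 did on all but the WD-SCC array of OT15, where it read 3.58. That array also had the lowest value of 24 of the 52 mitotic genes. Without it, 28 of the genes were higher in PD-SCC, as in the whole set, and 24 of them were among the 28 called there. In a fit blocked on lineage this leaves the OT15 PD-SCC array unpaired, so the stage difference then rests on OT7 and OT14. Leaving out the OT15 PD-SCC array gave the same counts, and the part of the WD-SCC array alone was not tested.

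In PD-SCC cells 28 of the 52 mitotic genes were higher than in WD-SCC cells and 0 were lower, at an adjusted p under 0.05 in limma's fit blocked on lineage. Over all 17097 genes 7.78% were higher and 4.81% lower. The remaining 24 mitotic genes did not pass. At an unadjusted p under 0.05, 43 mitotic genes were higher and 0 lower, with 17.2% of all genes higher. The median difference was 1.49 over the mitotic genes and -0.06 over all genes, and 51 of the 52 differences were positive. On the probe sets used, the 5 largest differences were those of Cenpf, Cdca8, Racgap1, Tpx2 and Ccna2, between 3.04 and 4.07. For 31 of the 52 genes the 4 PD-SCC values all lay above the 4 WD-SCC values, against 10.8% of all genes. The count of 28 fell to 14 without the PD-SCC array OT7-1, and to 17 without the PD-SCC array OT7-2, without the WD-SCC array OT7-2, or without either OT14 array. It was 10 with each stage's OT7 arrays averaged and 4 with OT7 left out, when 0.304% of all genes were higher. Without the lineage block 26 passed, among them Pttg1 (adjusted p 0.0475) and not Kif2c, Kif4 or Smc2 (adjusted p 0.0547, 0.0531 and 0.0551). In bulk samples a larger share of dividing cells and more of an RNA per cell cannot be told apart.

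**Figure D1:**
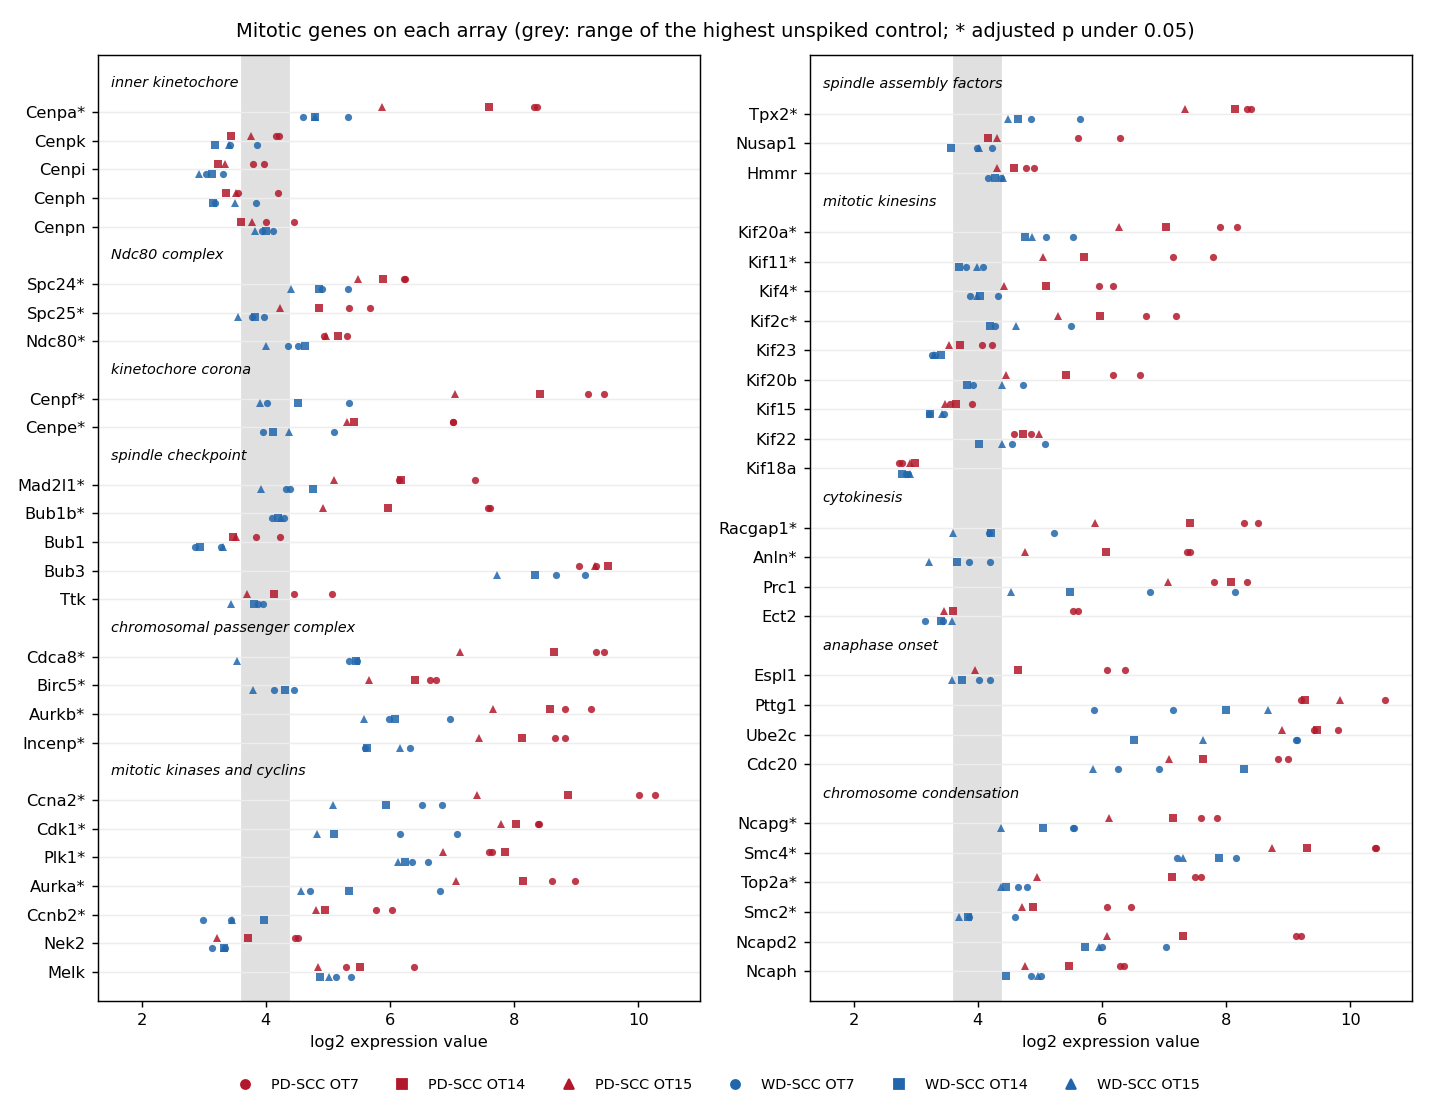
Log2 expression values of the 52 mitotic genes on the 8 arrays, with genes grouped by role down the page and the value on the horizontal axis. Red points are PD-SCC and blue points WD-SCC arrays, the shape gives the lineage, the grey band is the range of background over the arrays, and a star marks the 28 genes with an adjusted p under 0.05. Red points of the passenger complex genes and of Tpx2 stand clear of the blue ones, while those of Kif18a lie under the band in both stages.

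The chromosomal passenger complex corrects wrong attachments at centromeres and later moves to the midzone, and all 4 of its genes rose in PD-SCC, with a median difference of 2.38. Array values are given here in the order OT7, OT7, OT14 and OT15, with the numbered PD-SCC array OT7-1 and the unnumbered WD-SCC array first. Cdca8, which encodes borealin, a subunit that targets the complex, read 9.45, 9.32, 8.64 and 7.12 in PD-SCC cells, against 5.46, 5.33, 5.45 and 3.54 in WD-SCC cells. The WD-SCC array of OT15 stood low, under background, and the stages did not overlap: the difference was 3.69 (SE 0.16), with the smallest p of the list on the probe sets used (adjusted p 0.000622). This probe set has an _s_at name, and the other one of Cdca8 differed by 2.13 (adjusted p 0.0406 over all probe sets, and 0.0339 with _x_at and _s_at probe sets left out). Birc5, survivin, which binds the histone mark at centromeres, had 6.65, 6.75, 6.41 and 5.66 in PD-SCC cells, against 4.14, 4.45, 4.31 and 3.80 in WD-SCC cells. It differed by 2.19 (SE 0.14, adjusted p 0.0019), with lineage steps of 2.4 (OT7), 2.09 (OT14) and 1.86 (OT15). Aurkb, the kinase of the complex, had 8.83, 9.23, 8.58 and 7.67 in PD-SCC cells, against 5.98, 6.97, 6.09 and 5.58 in WD-SCC cells. All PD-SCC arrays lay above the WD-SCC ones, and the difference was 2.42 (SE 0.25, adjusted p 0.00591). Incenp, the scaffold that holds the complex together, had 8.82, 8.66, 8.13 and 7.43 in PD-SCC cells, against 5.60, 6.32, 5.63 and 6.16 in WD-SCC cells. Its stages were again apart, by 2.33 (SE 0.31, adjusted p 0.011), with the smallest step in OT15. Averaged over its probe sets, Incenp differed by 1.11 (adjusted p 0.0202).

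Kinases and cyclins start and drive mitosis, and 5 of 7 measured genes rose, with a median difference of 1.93. Ccna2, cyclin A2, which acts from S phase to early mitosis, had 10.26, 10.01, 8.87 and 7.41 in PD-SCC cells, against 6.51, 6.84, 5.93 and 5.08 in WD-SCC cells. The OT15 array was the lowest of both stages, the stages did not overlap, and the difference was 3.04 (SE 0.23, adjusted p 0.00307). Cdk1, the kinase that cyclins A and B activate, had 8.39, 8.38, 8.02 and 7.79 in PD-SCC cells, against 6.16, 7.08, 5.10 and 4.83 in WD-SCC cells. Its PD-SCC values lay close together and its WD-SCC values spread widely, with both OT7 arrays highest, and it differed by 2.36 (SE 0.32, adjusted p 0.0116). Plk1, polo-like kinase 1, which acts from entry to cytokinesis, had 7.60, 7.64, 7.85 and 6.85 in PD-SCC cells, against 6.61, 6.35, 6.24 and 6.13 in WD-SCC cells. The difference of 1.15 (SE 0.16) was the smallest of the 5 (adjusted p 0.0125). Aurka, the kinase of centrosomes and spindle poles, had 8.97, 8.62, 8.14 and 7.07 in PD-SCC cells, against 4.70, 6.81, 5.34 and 4.57 in WD-SCC cells. The WD-SCC array OT7-2 came nearest to the PD-SCC values without reaching them, and the difference was 2.84 (SE 0.46, adjusted p 0.0183). Ccnb2, a B-type cyclin, had 5.77, 6.03, 4.96 and 4.81 in PD-SCC cells, against 3.44, 2.99, 3.97 and 3.46 in WD-SCC cells. Of its WD-SCC values 1 was above background, and it differed by 1.93 (SE 0.35, adjusted p 0.0241).

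The other 2 kinases did not pass. Nek2, which splits the centrosomes, had 4.47, 4.51, 3.72 and 3.21 in PD-SCC cells, against 3.13, 3.34, 3.32 and 3.32 in WD-SCC cells. No WD-SCC array was above background, the PD-SCC array of OT15 lay among them, and the difference of 0.70 (SE 0.26) missed the threshold (adjusted p 0.132). Melk, a kinase found in dividing cells, had 5.29, 6.39, 5.51 and 4.83 in PD-SCC cells, against 5.14, 5.38, 4.87 and 5.01 in WD-SCC cells. The stages overlapped, with a difference of 0.41 (SE 0.28, adjusted p 0.363).

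The kinetochore is built in layers on the centromere. Of the 5 genes of the inner layer, 1 rose. Cenpa, the histone H3 variant that marks centromeres, had 8.32, 8.37, 7.60 and 5.88 in PD-SCC cells, against 4.59, 5.33, 4.80 and 4.79 in WD-SCC cells. The OT15 array was the lowest of the PD-SCC set but still above all WD-SCC values, and the difference was 2.67 (SE 0.43, adjusted p 0.0178). The other 4 belong to the constitutive network on centromeric chromatin and read near background. Cenpk had 4.17, 4.22, 3.44 and 3.77 in PD-SCC cells, against 3.85, 3.43, 3.19 and 3.41 in WD-SCC cells, a difference of 0.43 (SE 0.13, adjusted p 0.0854). Cenpi had 3.79, 3.97, 3.24 and 3.34 in PD-SCC cells, against 3.31, 3.03, 3.13 and 2.93 in WD-SCC cells, a difference of 0.49 (SE 0.15, adjusted p 0.0861). Both were above background on the OT7 PD-SCC arrays and on no WD-SCC array. Cenph had 3.55, 4.20, 3.36 and 3.52 in PD-SCC cells, against 3.19, 3.84, 3.15 and 3.51 in WD-SCC cells, a difference of 0.23 (SE 0.22, adjusted p 0.485). Cenpn, which recognises Cenpa nucleosomes, had 4.0, 4.46, 3.61 and 3.78 in PD-SCC cells, against 3.93, 4.11, 4.0 and 3.82 in WD-SCC cells. It was the single gene with a negative difference, of -0.01 (SE 0.16, adjusted p 0.983), and its stages overlapped.

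The Ndc80 complex grips the microtubule, and its 3 measured genes all rose by modest steps, with a median of 1.08. Spc24 had 6.24, 6.23, 5.88 and 5.49 in PD-SCC cells, against 4.91, 5.33, 4.86 and 4.41 in WD-SCC cells. The stages did not overlap, and the difference was 1.08 (SE 0.12, adjusted p 0.0068). Its partner Spc25 had 5.34, 5.68, 4.86 and 4.22 in PD-SCC cells, against 3.98, 3.77, 3.83 and 3.55 in WD-SCC cells. Of its WD-SCC values 1 was above background, and the difference was 1.24 (SE 0.20, adjusted p 0.0191). Ndc80, the subunit that touches the microtubule, averaged 5.10 ± 0.17 in PD-SCC cells, against 4.38 ± 0.28 in WD-SCC cells (SD, n = 4 each), and differed by 0.72 (SE 0.13, adjusted p 0.0261).

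Both genes of the outer corona rose. Cenpf, a long coiled-coil protein that recruits dynein regulators, had 9.44, 9.19, 8.41 and 7.04 in PD-SCC cells, against 4.02, 5.34, 4.52 and 3.91 in WD-SCC cells. On this probe set the level was 16.8-fold higher, a difference of 4.07 (SE 0.39, adjusted p 0.00523). Its other probe sets differed by 2.34 and, for one above background on no array, by 0.04. With the probe sets of each gene averaged, Cenpf differed by 2.15 (adjusted p 0.0114), less than Racgap1 at 3.05. Cenpe, the kinesin that carries chromosomes to the spindle equator, averaged 6.19 ± 0.96 in PD-SCC cells, against 4.38 ± 0.50 in WD-SCC cells (SD, n = 4 each), and differed by 1.81 (SE 0.38, adjusted p 0.0367).

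Of the 5 checkpoint genes, 2 rose. Mad2l1, which binds and blocks Cdc20, averaged 6.20 ± 0.93 in PD-SCC cells, against 4.35 ± 0.35 in WD-SCC cells (SD, n = 4 each), and differed by 1.85 (SE 0.35, adjusted p 0.0287). Bub1b, which joins it in the inhibitor complex, averaged 6.52 ± 1.31 in PD-SCC cells, against 4.21 ± 0.08 in WD-SCC cells (SD, n = 4 each), and differed by 2.31 (SE 0.48, adjusted p 0.036), or by 1.53 with its probe sets averaged (adjusted p 0.0358). Bub3, the adaptor that brings Bub1 and Bub1b to kinetochores, had 9.32, 9.04, 9.50 and 9.30 in PD-SCC cells, against 9.13, 8.68, 8.33 and 7.72 in WD-SCC cells. It was well above background on all 8 arrays, the unnumbered OT7 WD-SCC array read within the PD-SCC range, and the difference of 0.82 (SE 0.27) did not pass (adjusted p 0.104). Bub1, a kinase that marks centromeric chromatin, had 3.84, 4.23, 3.48 and 3.52 in PD-SCC cells, against 2.86, 3.27, 2.93 and 3.31 in WD-SCC cells. All PD-SCC values lay above the WD-SCC ones, but none of the WD-SCC values was above background and the difference of 0.67 (SE 0.19) missed the threshold (adjusted p 0.077). Ttk, the Mps1 kinase at the top of the checkpoint, had 4.45, 5.06, 4.13 and 3.70 in PD-SCC cells, against 3.88, 3.95, 3.80 and 3.44 in WD-SCC cells. It was above background on 3 PD-SCC arrays and on no WD-SCC array. The difference of 0.57 (SE 0.19) did not pass (adjusted p 0.106), and no bound is given, since the PD-SCC array of OT15 was also under background.

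Of 3 spindle assembly genes 1 rose. Tpx2, which activates Aurora A and starts microtubules near chromosomes, had 8.40, 8.34, 8.14 and 7.34 in PD-SCC cells, against 5.65, 4.86, 4.65 and 4.49 in WD-SCC cells. The stages lay far apart in each lineage, and the difference was 3.14 (SE 0.21, adjusted p 0.00204). Nusap1, which bundles spindle microtubules, had 5.62, 6.29, 4.17 and 4.32 in PD-SCC cells, against 4.22, 3.98, 3.56 and 4.03 in WD-SCC cells. The OT7 PD-SCC arrays stood alone at the top, and the difference of 1.15 (SE 0.34) missed the threshold (adjusted p 0.0806). Hmmr, which helps anchor spindle poles, had 4.90, 4.78, 4.59 and 4.30 in PD-SCC cells, against 4.37, 4.16, 4.27 and 4.41 in WD-SCC cells on the probe set with the highest mean. The stages overlapped, with a difference of 0.34 (SE 0.15, adjusted p 0.183), while another of its probe sets differed by 0.93 (adjusted p 0.0481 over all probe sets).

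Mitotic kinesins move or shorten microtubules, and 4 of 9 rose. Kif20a, which takes the passenger complex to the midzone, had 7.90, 8.18, 7.03 and 6.28 in PD-SCC cells, against 5.10, 5.53, 4.76 and 4.87 in WD-SCC cells. The stages did not overlap, and the difference was 2.28 (SE 0.26, adjusted p 0.00748). Kif11, which pushes the spindle poles apart, averaged 6.43 ± 1.26 in PD-SCC cells, against 3.90 ± 0.18 in WD-SCC cells (SD, n = 4 each). No WD-SCC array was above background, so that it was at least 4.97-fold higher in PD-SCC (adjusted p 0.0257). Kif4, a chromosome-bound kinesin, averaged 5.41 ± 0.81 in PD-SCC cells, against 4.05 ± 0.19 in WD-SCC cells (SD, n = 4 each), and differed by 1.36 (SE 0.30, adjusted p 0.041). Kif2c, which shortens microtubules at centromeres, averaged 6.29 ± 0.84 in PD-SCC cells, against 4.65 ± 0.59 in WD-SCC cells (SD, n = 4 each). It differed by 1.64 (SE 0.37) and was the single gene of the 28 whose stages overlapped (adjusted p 0.0428).

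The remaining kinesins did not pass. Kif20b, which acts late in cytokinesis, had 6.61, 6.18, 5.43 and 4.46 in PD-SCC cells, against 4.73, 3.92, 3.83 and 4.39 in WD-SCC cells, a difference of 1.45 (SE 0.40, adjusted p 0.0689). Its OT15 arrays read nearly alike in both stages, and its OT7 and OT14 arrays did not. Its other probe set differed by 1.10 (adjusted p 0.0245 over all probe sets). Kif23, which forms centralspindlin with Racgap1, had 4.24, 4.06, 3.72 and 3.54 in PD-SCC cells, against 3.32, 3.26, 3.41 and 3.30 in WD-SCC cells. The stages were apart but the WD-SCC values were all under background, and the difference was 0.56 (SE 0.15, adjusted p 0.0659). Kif15, which can stand in for Kif11, had 3.91, 3.55, 3.65 and 3.47 in PD-SCC cells, against 3.22, 3.45, 3.23 and 3.43 in WD-SCC cells, with the stages apart by little, a difference of 0.31 (SE 0.14, adjusted p 0.177). Kif22, a kinesin that binds DNA, had 4.58, 4.86, 4.73 and 4.99 in PD-SCC cells, against 4.55, 5.08, 4.02 and 4.4 in WD-SCC cells, a difference of 0.28 (SE 0.21, adjusted p 0.411). Its highest reading came from a WD-SCC array. Kif18a, which damps chromosome movement, had 2.78, 2.74, 2.99 and 2.91 in PD-SCC cells, against 2.88, 2.85, 2.79 and 2.91 in WD-SCC cells. It was under background on all 8 arrays, so no change in either direction could be read from it (adjusted p 0.995).

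Of 4 cytokinesis genes 2 rose. Racgap1, the other centralspindlin subunit, had 8.52, 8.28, 7.42 and 5.89 in PD-SCC cells, against 4.18, 5.23, 4.21 and 3.60 in WD-SCC cells. The WD-SCC array of OT15 was under background, the stages did not overlap, and the difference was 3.22 (SE 0.34, adjusted p 0.00614). Anln, anillin, the scaffold of the contractile ring, had 7.41, 7.37, 6.07 and 4.76 in PD-SCC cells, against 3.85, 4.20, 3.67 and 3.22 in WD-SCC cells. Of its WD-SCC values 1 was above background, and the difference was 2.67 (SE 0.33, adjusted p 0.00957), or 1.41 with its probe sets averaged (adjusted p 0.00997). Prc1, which bundles midzone microtubules, had 8.34, 7.80, 8.07 and 7.07 in PD-SCC cells, against 6.78, 8.15, 5.48 and 4.54 in WD-SCC cells. The WD-SCC array OT7-2 read within the PD-SCC range, and the difference of 1.58 (SE 0.51) did not pass (adjusted p 0.1). Ect2, the exchange factor that switches on RhoA at the furrow, had 5.61, 5.54, 3.60 and 3.46 in PD-SCC cells, against 3.15, 3.45, 3.40 and 3.58 in WD-SCC cells. It was above background on the OT7 PD-SCC arrays and on no other array. The difference of 1.15 (SE 0.48) did not pass (adjusted p 0.163), and no bound is given, since the OT14 and OT15 PD-SCC arrays were also under background.

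None of the 4 genes of anaphase onset passed, although their median difference was 1.34. Espl1, separase, had 6.37, 6.08, 4.64 and 3.95 in PD-SCC cells, against 4.03, 4.20, 3.74 and 3.59 in WD-SCC cells, a difference of 1.37 (SE 0.34, adjusted p 0.0526). The OT7 PD-SCC arrays were highest and the OT15 one lay within the WD-SCC range. Pttg1, securin, which holds separase inactive, had 9.20, 10.55, 9.26 and 9.84 in PD-SCC cells, against 5.87, 7.15, 7.99 and 8.68 in WD-SCC cells. The stages did not overlap, the WD-SCC values spread widely, and the difference of 2.29 (SE 0.60) did not pass (adjusted p 0.0616), while another of its probe sets differed by 2.97 (adjusted p 0.0241 over all probe sets). Ube2c, the ubiquitin-conjugating enzyme of the anaphase-promoting complex, had 9.42, 9.80, 9.46 and 8.91 in PD-SCC cells, against 9.13, 9.14, 6.51 and 7.63 in WD-SCC cells. Its OT7 WD-SCC arrays read nearly as high as the OT7 PD-SCC arrays, and the difference was 1.29 (SE 0.43, adjusted p 0.107). Cdc20, the activator of that complex, had 9.0, 8.83, 7.62 and 7.09 in PD-SCC cells, against 6.92, 6.26, 8.29 and 5.86 in WD-SCC cells. The OT14 lineage ran the other way, with WD-SCC above PD-SCC, and the difference was 1.3 (SE 0.53, adjusted p 0.16).

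Chromosome condensation gave 4 of 6 genes that rose. Ncapg, a subunit of condensin I, had 7.59, 7.85, 7.14 and 6.11 in PD-SCC cells, against 5.53, 5.54, 5.05 and 4.38 in WD-SCC cells. The stages did not overlap, and the difference was 2.05 (SE 0.12, adjusted p 0.00156), with lineage steps of 2.19 (OT7), 2.10 (OT14) and 1.73 (OT15). Smc4, which with Smc2 forms the core of both condensins, had 10.40, 10.41, 9.30 and 8.75 in PD-SCC cells, against 7.20, 8.16, 7.89 and 7.30 in WD-SCC cells. The stages did not overlap, and the difference was 2.08 (SE 0.34, adjusted p 0.0193). Top2a, the topoisomerase that untangles sister chromatids, had 7.59, 7.50, 7.12 and 4.96 in PD-SCC cells, against 4.78, 4.64, 4.45 and 4.37 in WD-SCC cells. The OT15 PD-SCC array lay just above the WD-SCC range, and the difference was 2.23 (SE 0.40, adjusted p 0.025), or 0.70 with its probe sets averaged (adjusted p 0.0299). Smc2 averaged 5.54 ± 0.87 in PD-SCC cells, against 4.0 ± 0.41 in WD-SCC cells (SD, n = 4 each), and differed by 1.53 (SE 0.28, adjusted p 0.0266), or by 0.86 with its probe sets averaged (adjusted p 0.0425). The condensin I subunit Ncapd2 had 9.13, 9.20, 7.31 and 6.09 in PD-SCC cells, against 6.00, 7.03, 5.73 and 5.96 in WD-SCC cells. In OT15 the stages were nearly level, and the difference of 1.75 (SE 0.49) did not pass (adjusted p 0.0702). Ncaph, the kleisin of condensin I, had 6.35, 6.30, 5.46 and 4.77 in PD-SCC cells, against 5.02, 4.86, 4.45 and 4.97 in WD-SCC cells. Here OT15 read lower in PD-SCC than in WD-SCC, and the difference was 0.89 (SE 0.28, adjusted p 0.095).

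Within each lineage most of the genes read higher in PD-SCC. For the 52 genes, lineage OT7 had a median difference of 2.06, OT14 one of 1.29 and OT15 one of 0.95, while the medians over all genes were -0.08, 0.01 and -0.07. The difference was positive for 50 genes in OT7, 50 in OT14 and 46 in OT15, and for 43 in all of them. Over all 17097 genes it was positive for 7272, 8761 and 7314, and for 3797 in all of them. It was above 1 for 36, 33 and 25 mitotic genes in that order, and for 2185, 1420 and 1795 of all genes. OT7 had the largest of the 3 differences for 41 of the 52 genes, and OT15 the smallest for 37, which held for 5697 and 6318 of all genes. Within OT7, the lineage with 2 arrays per stage, 29 of the 52 genes were higher in PD-SCC and 0 lower (adjusted p under 0.05), against 6.21% of all genes higher. These 29 included genes that missed the threshold over all lineages. For Ect2 the OT7 difference was 2.27, the OT14 difference 0.20 and the OT15 difference -0.12. Cdc20 differed by 2.32, -0.67 and 1.23 in the same lineages, and Espl1 by 2.11, 0.91 and 0.36. Bub3 had the opposite order, with 0.27 for OT7, 1.18 for OT14 and 1.58 for OT15. The smallest step of Prc1 was also that of OT7, 0.61, with 2.59 in OT14 and 2.53 in OT15. Spc24 differed by 1.11, 1.02 and 1.08, nearly the same step in each. The test of the difference between lineages called 0 of the mitotic genes and 0% of all genes after adjustment. At an unadjusted p under 0.05 it gave 13 of 52 mitotic genes and 2043 of 17097 in all, so the unequal steps between lineages did not pass the test. Its residual spread comes from the OT7 arrays alone.

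**Figure D2:**
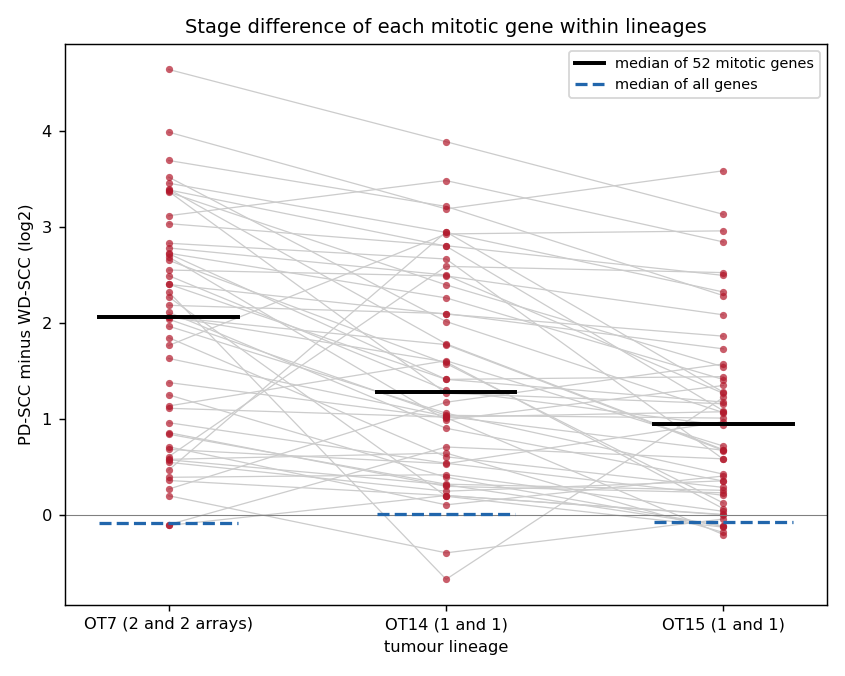
The PD-SCC minus WD-SCC difference of each of the 52 mitotic genes (log2) within lineages OT7, OT14 and OT15, with a grey line joining the points of a gene. Black bars are the medians over the mitotic genes, 2.06, 1.29 and 0.95, and dashed bars the medians over all genes, which lie near 0.

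Levels on single PD-SCC arrays followed the same order. Among PD-SCC arrays both OT7 arrays read above the other 2 for 41 of the 52 genes (78.8%), which holds for 22.1% of all genes. The OT15 array was the lowest PD-SCC array for 41 of 52 (78.8%), against 28.9% of all genes. Among WD-SCC arrays OT15 was the lowest for 25 genes (48.1%), against 21.7% of all genes. The median level of the mitotic genes was 6.68 and 7.11 on the OT7 arrays, 5.93 on OT14 and 5.02 on OT15 in PD-SCC. In WD-SCC it was 4.38 and 4.75 on OT7, 4.29 on OT14 and 4.31 on OT15. No WD-SCC array had a median as high as the lowest PD-SCC array. Array medians over all probe sets, which the authors' normalisation sets nearly equal, lay between 3.66 and 3.77.

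More of the mitotic genes were above background on each PD-SCC array than on any WD-SCC array. The counts were 50, 50, 45 and 41 of 52 on the PD-SCC arrays of OT7-1, OT7-2, OT14 and OT15. On the WD-SCC arrays, the unnumbered OT7 array first, the counts were 32, 35, 38 and 25. On all 4 arrays of a stage 41 genes were above background in PD-SCC and 24 in WD-SCC, and on none of the 4 it was 1 gene in PD-SCC and 11 in WD-SCC. Over all genes, 55.5% to 63.7% were above background on PD-SCC arrays and 45.2% to 58.2% on WD-SCC arrays, the background itself being lower on PD-SCC arrays. The part of that lower background in these counts was not tested.

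**Figure D3:**
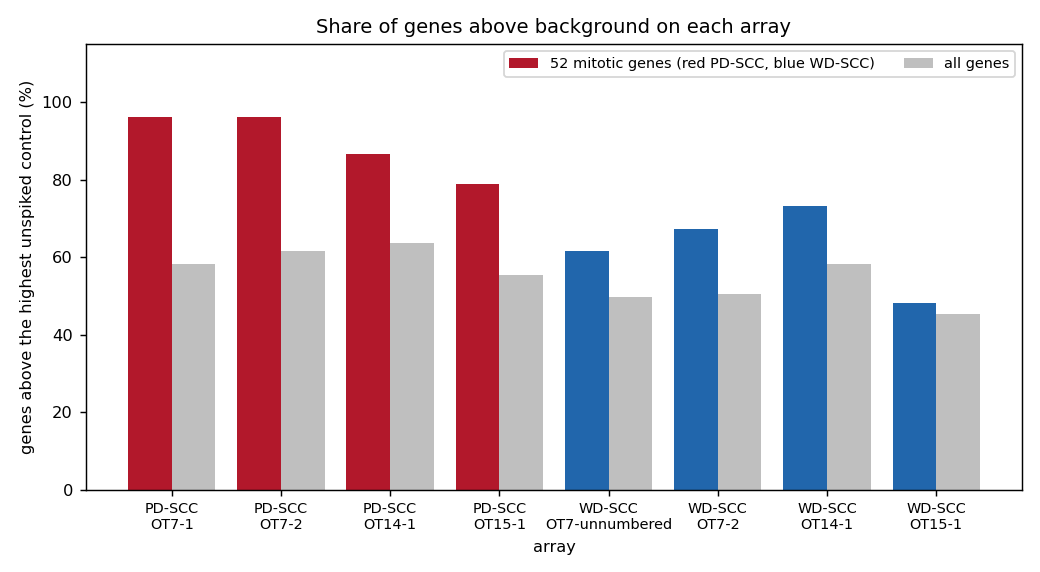
Percent of genes above the highest unspiked control on each array, for the 52 mitotic genes (red PD-SCC, blue WD-SCC) and for all genes (grey). The mitotic bars run from 78.8% to 96.2% on PD-SCC arrays and from 48.1% to 73.1% on WD-SCC arrays.

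Other genes of mitosis, 125 measured in 5 lists, were set beside the 52. Of these 34 rose (27.2%) and 1 fell (0.8%), with a median difference of 0.69. Over all genes 7.78% were higher and 4.81% lower, the shares to set beside each list. Among 31 other kinetochore genes 7 rose and 0 fell, with a median of 0.45. They included Zw10, which brings dynein to kinetochores, with a difference of 0.95 (SE 0.09, adjusted p 0.00496), and the inner kinetochore genes Cenpo (0.69, SE 0.11, adjusted p 0.0152) and Cenpx (1.65, SE 0.27, adjusted p 0.0185). The negative side held Oip5, Nsl1 and Cenpu, with differences of -0.12, -0.03 and -0.02, none past the threshold. Among 30 other spindle and cytokinesis genes 11 rose and 0 fell, with a median of 0.84. Mki67, the Ki-67 antigen that coats mitotic chromosomes, differed by 1.86 (SE 0.24, adjusted p 0.00994). The microtubule polymerase Ckap5 differed by 1.40 (SE 0.17, adjusted p 0.00841), and Bora, the cofactor of Aurora A, by 1.70 (SE 0.22, adjusted p 0.0102). Ccdc69, Numa1 and Kif3a differed by -0.28, -0.73 and -0.07, none past the threshold.

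Of 26 genes of the anaphase-promoting complex, cohesin and the other condensin, 9 rose and 0 fell, with a median of 0.74. The complex subunits Anapc4 and Cdc16 differed by 1.32 (SE 0.12, adjusted p 0.00518) and 1.76 (SE 0.20, adjusted p 0.00748). Cdca5, sororin, which protects cohesion, differed by 2.25 (SE 0.24, adjusted p 0.00621). Wapl, which releases cohesin, differed by -0.62 (adjusted p 0.0522), with Stag2 at -0.27 and Cdc27 at -0.26, none past the threshold. Centriole duplication had 2 of 16 genes that rose (12.5%), not far from the 7.78% of all genes. They were Cep152, by 1.28 (SE 0.29, adjusted p 0.0439), and the kinase Plk4, which starts duplication, by 1.85 (SE 0.42, adjusted p 0.0446). Haus8 (0.41), Cep63 (-0.13) and Nedd1 (-0.07) did not pass. Among 22 regulators of entry and of mitotic transcription 5 rose and 1 fell. The risers included Cks1b, a Cdk-binding subunit, by 2.25 (SE 0.19, adjusted p 0.00415), the kinase Pbk by 2.21 (SE 0.40, adjusted p 0.0248) and the MuvB subunit Rbbp4 by 0.80 (SE 0.16, adjusted p 0.0308). Wee1, the kinase that holds Cdk1 inactive, differed by -1.52 (SE 0.32) and was the gene that fell (adjusted p 0.0353), its 4 PD-SCC values all under the WD-SCC ones. Ccnf and the MuvB subunit Lin54 differed by -0.39 and -0.46 without passing. The MuvB subunits Lin9 (0.79, adjusted p 0.235) and Lin52 (0.28, adjusted p 0.229) did not pass either. Nor did Foxm1 (1.03, adjusted p 0.0735) and Mybl2, the B-MYB gene (1.24, adjusted p 0.139).

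**Figure D4:**
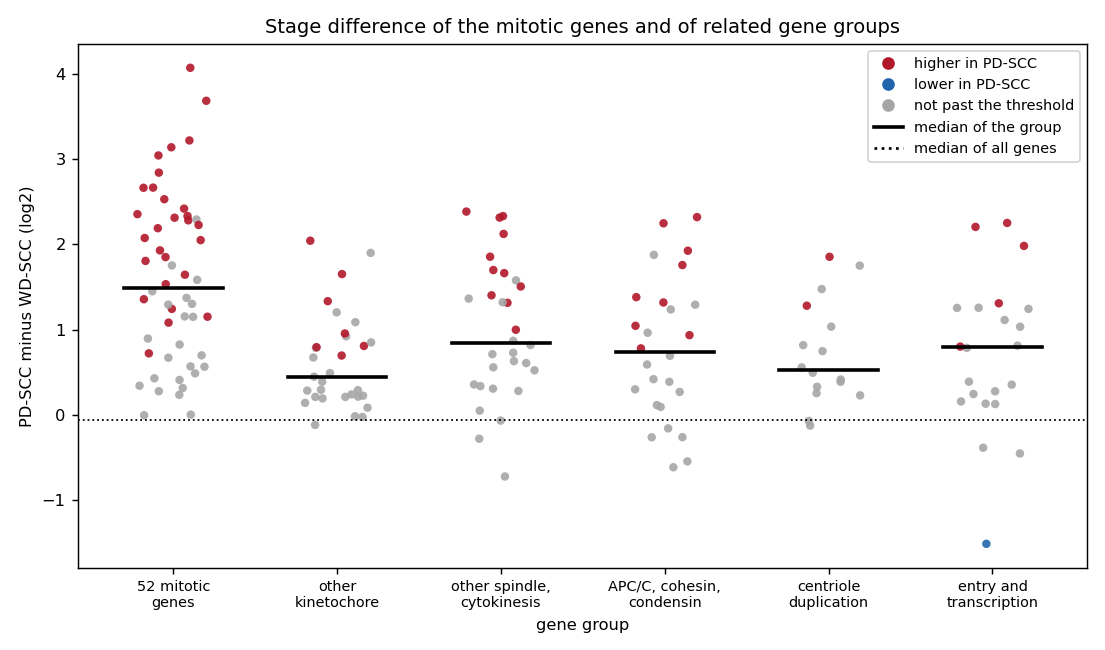
PD-SCC minus WD-SCC difference (log2) of single genes in the 52 mitotic genes and in the 5 related lists, with a black bar at the median of each list and a dotted line at the median of all genes, -0.06. Red points are the genes higher in PD-SCC, 28 of 52 and 34 of 125, against 7.78% of all genes. The blue point is Wee1, and grey points did not pass the threshold.

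Several cell type markers moved with the stage, where over all genes 7.78% were higher and 4.81% lower. Of 12 haematopoietic markers 0 rose and 4 fell, and their summed linear level was 196 to 305 on PD-SCC arrays and 1495 to 4137 on WD-SCC arrays. The 4 were S100a9 (-5.95), Cd68 (-2.79), Fcer1g (-2.74) and Cd52 (-1.71). S100a9 read 11.52 and 11.78 on the WD-SCC arrays of OT14 and OT15 and made up most of their sums. Laptm5, Csf1r, Lyz2, Tyrobp, Cd79a and Cd3e did not pass. Ptprc and Itgam, which define blood and myeloid cells, were under background on all arrays of both stages. Of 10 endothelial markers 0 rose and 3 fell, with sums of 132 to 448 in PD-SCC and 197 to 2068 in WD-SCC. Those that fell were Tie1, Egfl7 and Cldn5, with differences of -3.81, -1.95 and -1.19. Cdh5 read 9.80 on the WD-SCC array of OT14 and did not pass (adjusted p 0.177). It also read 8.39 on the PD-SCC array of OT15, and 4.31 on the unnumbered OT7 WD-SCC array. Tek, the angiopoietin receptor, was under background on all arrays. Of 12 markers of differentiated keratinocytes 0 rose and 7 fell, with sums of 170 to 238 in PD-SCC and 6794 to 13715 in WD-SCC. Those that fell were Lce3a (-8.57), Cdsn (-6.72), Sbsn (-6.21), Sprr1b (-6.00), Krtdap (-5.39), Lor (-2.64) and Ivl (-2.28). Krt1, Flg and Dsg1a were under background on all arrays of both stages. Of 10 basal keratinocyte markers 1 rose and 6 fell, with sums of 813 to 1183 in PD-SCC and 3260 to 8144 in WD-SCC. The 6 were Krt5 (-7.10), Krt14 (-5.01), Lamb3 (-4.45), Col17a1 (-4.04), Trp63 (-3.78) and Cdh1 (-2.83). Dst rose (1.75), and Krt15, Itgb4 and the sort marker Itga6 did not pass. Cdh1, E-cadherin, which defines epithelial cells, was under background on all PD-SCC arrays. Of 10 fibroblast markers none passed, with sums of 1287 to 3487 in PD-SCC and 624 to 8883 in WD-SCC. Whether these markers reflect other cells or the tumour cells themselves was not tested, nor was their part in the mitotic result. The difference between the 3' and 5' control probe sets, a measure of RNA integrity, lay for Gapdh between -0.41 and -0.24 on PD-SCC arrays and between -0.53 and -0.04 on WD-SCC arrays, ranges that overlapped.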

How the data were processed

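Gene expression of sorted mouse tumour cells was measured on 8 single-colour Affymetrix arrays. The authors deposited log2 values, 1 for each probe set on each array, made with affy and RMA (background correction, quantile normalisation, summary of probes), per the submitters' processing notes; no version of either was given here. That the scale is log2 follows from the range of the values. Of 45141 probe sets, 28898 carried 1 gene symbol in the platform annotation and 551 carried several, which were left out. A RefSeq gene table served to update symbols by their Entrez number (99.1% matched), and each gene was represented by its brightest probe set (highest mean of the 8 arrays), which left 17097 genes.

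The stage difference was fitted over all genes with limma 3.58.1 in R 4.3.3 (lmFit and eBayes, two-sided), lineage being a fixed block, which left 4 residual degrees of freedom. P-values were adjusted over all genes by Benjamini-Hochberg, with a threshold of 0.05. The pairing of stages by lineage comes from the series design. Differences within lineages, and the F test between them, used a model in which each lineage and stage had 1 coefficient, with 2 residual degrees of freedom. The fits were tested on simulated data. Motifs were searched on both strands of the RefSeq windows of 250 bases before to 50 bases after a start, and plots used matplotlib 3.10.9 in Python 3.11.15.

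The members, the related lists and the tests were chosen with earlier results of these data known. By rule, array values are given for called genes with one of the 20 smallest p, for the 3 largest and 3 smallest differences and for every gene that did not pass. Of each related list the 3 smallest p in each direction are named, and so are the measured genes of MuvB, B-MYB and FOXM1. The alternatives were no block, a random block, averaged OT7 arrays, dim genes filtered out, probe sets averaged per gene, no probe sets named _x_at or _s_at, cyclic loess, scaling to the 75th percentile, values raised to background, a trended and robust prior, and leaving out each array or OT7. Scanner files were not used here.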

Additional observations from a re-analysis of the deposited data

Results flagged for a closer look

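Of 104 sets of 4 values looked at (52 genes in each stage), 2 held a value far from the other 3, where chance flags about 1 in 20. Cdca8, the borealin gene, read 3.54 on the WD-SCC array of OT15, under background, against 5.33 to 5.46 on the other 3 WD-SCC arrays. Nek2 read 3.13 on the unnumbered OT7 WD-SCC array, against 3.32 to 3.34 on the others, all of them under background.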

How the results depend on the processing

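The share of all genes higher stands in brackets. Without the replicate block, 26 of the mitotic genes were higher in PD-SCC (7.31%), 25 of them among the 28 called with it, and lineage as a random block also gave 26 (7.61%). Cyclic loess gave 25 (4.67%), probe sets without _x_at and _s_at names 28 of 51 (7.3%), and scaling to the 75th percentile 30 (6.73%). The mean of probe sets gave 32 (8.24%), and the trended and robust prior 35 (7.87%). The filter on dim genes gave 33 of 41 (18.1%). It kept genes above background on all 4 arrays of either stage. All 41 mitotic genes kept met this in PD-SCC, and 24 met it in WD-SCC. The others entered only through the stage where they read higher, so this count adds no support. Averaging the OT7 arrays of a stage left 10 (1.18%), and leaving out OT7 left 4 (0.304%), 3 of them among the 28; both fits have fewer samples. Leaving out 1 array gave 14 (3.21%) to 28 (4.92%), and the highest share of all genes, 5.6%, went with 22. In each of those 8 fits 14 genes passed: Spc24, Cenpf, Aurkb, Birc5, Incenp, Cdca8, Ccna2, Cdk1, Plk1, Tpx2, Kif20a, Anln, Racgap1 and Ncapg. Those 8 fits are not all distinct. Leaving out either OT14 array gave the same result, as did leaving out either OT15 array, because the lineage block leaves the other array unpaired. The median difference lay between 1.14 and 1.85 over all settings, the highest being that of the filter on dim genes. Raising values to background gave 35 higher (12.8%) and 3 lower (48.7% of all genes), and moved the median of all genes to -0.38, since background was lower on PD-SCC arrays; Cenpi (-0.32), Kif15 (-0.36) and Kif18a (-0.42) then passed as lower, and Cenph (-0.28), Cenpk (-0.16), Bub1 (-0.24) and Kif23 (-0.16) turned negative without passing. Scaling to the 75th percentile moved the median of all genes to -0.21. Cenpn and Kif18a, with differences near 0, changed sign elsewhere: Cenpn to 0.0675 with the mean of probe sets and 0.0542 with cyclic loess, and Kif18a to -0.0155 with the mean and -0.149 with scaling. Leaving out arrays put Cenpn between -0.139 and 0.123, and Kif18a between -0.0671 and 0.0310. The cause of these turns was not tested. Signal near background limits the inner kinetochore genes other than Cenpa, and Kif18a, and 11 mitotic genes had no WD-SCC value above it.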

Other observations

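Of the 52 measured mitotic genes, 30 had more than 1 probe set, and the 45 probe sets not used showed how far a single gene's reading depends on its probes. Of these 45, 33 had the sign of the one used and 12 the other sign, and 12 were above background on no array. Pttg1, securin, differed by 2.29 on the probe set used and by 2.97 (adjusted p 0.0241 over all probe sets, limma) on another. Kif20b differed by 1.45 on the probe set used and by 1.10 (adjusted p 0.0245) on its other one. Hmmr differed by 0.34 on the probe set used, and by 0.93 (adjusted p 0.0481) and 1.59 on others. Aurkb differed by 2.42 on the probe set used and by 3.63 on the other. Of the 28 genes higher in PD-SCC, 16 had 23 other probe sets, 10 of which passed over all probe sets and 3 of which had a negative difference. Top2a, which differed by 2.23 on the probe set used, differed by 0.17 and -0.31 on others, above background on 2 and 0 arrays. Bub1b differed by 2.43 and by -0.16 on its others, the second above background on 0 arrays. Incenp differed by 1.12 and by -0.12, the second above background on 6 arrays. Anln differed by 0.15 on its other probe set, above background on 0 arrays, against 2.67 on the one used. Smc2 differed by 0.10 on a probe set above background on 7 arrays, and by 0.86 and 0.97 on the other two, against 1.53 on the one used. Over all probe sets, 39 of the 97 probe sets of these genes were higher in PD-SCC (adjusted p under 0.05), and 5.49% of all probe sets were.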
